A study of Mus musculus with 8 samples.

Results

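The 33 genes described here make, sense, carry or export cholesterol. They were given as a fixed list of symbols: 18 enzymes of the mevalonate and sterol route, 5 regulators built around the SREBP transcription factors, 3 sterol carriers, 5 genes of export and turnover, and 2 LXR nuclear receptors. Each symbol had 1 row in a deposited table of 24883 rows, and all 33 were among the 13912 rows with a mean of at least 0.5 FPKM (fragments counted per kilobase of transcript and scaled to library size) that were tested. RNA was sequenced from visual cortex of adult C57BL/6J mice that had received an intracortical injection on postnatal day 122 and were sampled on postnatal day 129, 7 days later. In 4 libraries the injected locked nucleic acid (LNA) oligonucleotide had a scrambled sequence, and in 4 it was complementary to miR-29a, so that both groups carry the injection and an LNA. Whether each library is a different mouse is not stated in the labels, and p-values therefore measure the spread between these samples.

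Cells sense cholesterol in the membrane of the endoplasmic reticulum. When sterol is low, SCAP escorts SREBP2 to the Golgi, where it is cut, and the released factor enters the nucleus and switches on nearly every gene of the route from acetyl-CoA to cholesterol; when sterol is high, the INSIG proteins hold SCAP back. Oxidised sterols act on the other arm through the LXR receptors, which raise the exporters. The adult brain is sealed from cholesterol in blood and makes its own, largely in glia, while neurons dispose of the surplus through the hydroxylase CYP46A1.

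The libraries listed 12538 to 12769 rows at 1 FPKM or more, and pairs of libraries had a Pearson correlation across genes (log2 values) of 0.932 to 0.963 inside a group and 0.931 to 0.957 across groups. Markers of cortical neurons were present in every library, at a summed 4227 to 4470 FPKM in scrambled and 4176 to 4444 FPKM in anti-miR-29a libraries. Over all tested rows, limma called 2 genes, 0.0144% of the rows, and neither was a sterol gene.

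The microRNA that was blocked and its close relatives are shown because the seed decides which transcripts they can pair with. Sequences are from RefSeq (GRCm38.p6), and capitals mark the seed, bases 2 to 8, which is the same in all 3.
mmu-miR-29a-3p: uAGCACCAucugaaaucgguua
mmu-miR-29b-3p: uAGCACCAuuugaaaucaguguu
mmu-miR-29c-3p: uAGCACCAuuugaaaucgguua

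A match to the seed, TGGTGCT, was present in the longest annotated 3' UTR of 5 of the 33 sterol genes (15.2%), next to 15.8% of the 13112 tested genes with a 3' UTR. The sites are printed with 7 bases on each side from GENCODE M21 transcripts (GRCm38), with the match in capitals, because they are the only places in these genes where the blocked microRNA could pair through its full seed in the searched sequence. None of the 5 had the A after the match that makes an 8-base site.
Hmgcs1, chr13:119707582-119707588, plus strand: tgattttTGGTGCTgaacaat
Fdft1, chr14:63146577-63146583, minus strand: agcagccTGGTGCTggctggg
Cyp51, chr5:4082229-4082235, minus strand: gctggagTGGTGCTgcacacc
Insig1, chr5:28077199-28077205, plus strand: aggttgaTGGTGCTtaacaga
Soat1, chr1:156428092-156428098, minus strand: gaatttcTGGTGCTgtttgtt

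Of these 5 genes 3 lay below 0 and 2 at or just above it. Their log2 differences, anti-miR-29a minus scrambled, were -0.21 for Hmgcs1, 0.00 for Fdft1, -0.03 for Cyp51, -0.12 for Insig1 and 0.04 for Soat1, and none passed (limma, adjusted p = 0.351 to 0.995). Without scrambled replicate 3 all 5 were below 0, with Fdft1 and Soat1 at -0.03, and likewise without anti-miR-29a replicate 2, with Fdft1 at -0.01 and Soat1 at -0.08. Without scrambled replicate 4, in contrast, Cyp51, Fdft1 and Soat1 were above 0, at 0.04, 0.04 and 0.09. The genes farthest from 0, Stard4 and Nr1h3, had 0 matches in 3' UTRs of 4231 and 275 nt.

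Anti-miR-29a libraries were set against scrambled ones for every sterol gene. Levels of most of these genes lay close together in the 2 groups. Stard4 read about 2 times lower and Nr1h3 about 2 times higher in anti-miR-29a libraries, and SREBP2's gene Srebf2 and the enzymes Hmgcs1, Mvd, Lss and Sc5d read 13.5% to 21.7% lower. The enzyme gene Tm7sf2 and the receptor gene Nr1h2 read 1.335 and 1.13 times their scrambled level. These genes are named because their unadjusted p was under 0.05. Some others differed as much, such as Idi1, 15.4% lower, and Srebf1, at 1.24 times its scrambled level. None of the 33 passed after adjustment over all tested rows (limma, Benjamini-Hochberg adjusted p = 0.200 to 0.995), and robust empirical Bayes also called 0 of them. At an unadjusted p under 0.05, 6 sterol genes were lower, 18.2% of the 33 against 3.18% of all tested rows, and 3 were higher, 9.09% against 7.54%. The groups of libraries did not overlap in 2 that were lower (6.06%, against 2.29% of all rows) and 1 that was higher (3.03%, against 4.02%). The share lower was thus above that of all rows and the share higher near it; the list was proposed with results of these data known, and the excess was not tested. The first of these counts rests partly on 1 library: 3 genes, not 6, were lower without scrambled replicate 4, while 8 were lower without scrambled replicate 3. For the higher genes the count was 1, not 3, without anti-miR-29a replicate 3 or 4. Over all rows, in either direction, 1241 were under 0.05 without scrambled replicate 4 and 1581 without scrambled replicate 3, next to 1492. Without anti-miR-29a replicate 3 or 4 that count was 1532 or 1278.

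**Figure D1:**
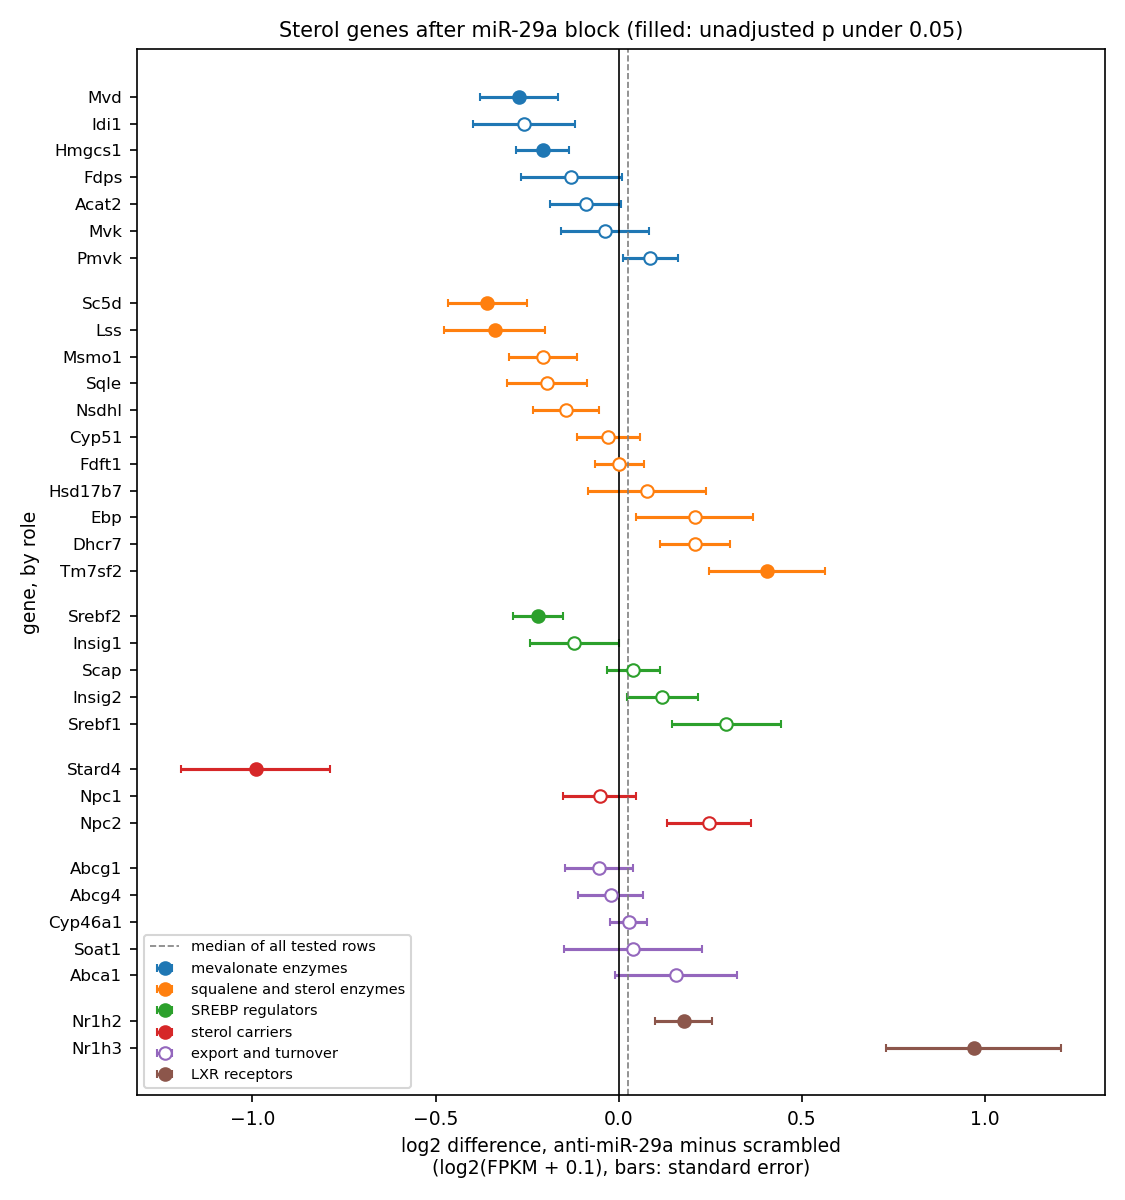
Log2 difference of each of the 33 sterol genes, anti-miR-29a minus scrambled, on the log2(FPKM + 0.1) scale, grouped by role; bars are standard errors from limma, filled points have an unadjusted p under 0.05 and the dashed line is the median of all tested rows. Stard4 at -0.99 and Nr1h3 at 0.97 stand far from the other genes, which lie between -0.36 and 0.40.

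Fold changes are given on the log2(FPKM + 0.1) scale, which understates the change of low genes. In the plot of log2 differences by role, 18 of the 33 sterol genes lay below 0 and the median was -0.03, while 43.4% of all tested rows lay below 0 and their median was 0.03. Counts are given by role, and the difference between roles was not tested. Of the 18 enzymes 12 were below 0, with a median of -0.11, and of the other 15 genes 6 were below 0, with a median of 0.04. The enzyme median was -0.17, with 14 of 18 below 0, after the length and GC trend was removed. In that setting 52.2% of all tested rows lay below 0, with a median of -0.008. The enzyme median was -0.15 without scrambled replicate 3, and -0.07 when either scrambled replicate 2 or anti-miR-29a replicate 1 was left out. Whichever library was left out, 11 to 14 of the 18 enzymes and 41.3% to 47.1% of all rows were below 0. The median of all 33 changed sign without scrambled replicate 2 or 4, to 0.01 and 0.02. In this bulk tissue, fewer cells of a type and less RNA per cell cannot be told apart.

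The mevalonate enzymes build the isoprene units from which sterols are made. Of 7 such genes 6 had a negative difference. Hmgcs1, which condenses acetyl-CoA with acetoacetyl-CoA to HMG-CoA, read 39.5, 42.2, 38.0 and 45.5 FPKM in scrambled replicates 1 to 4. In anti-miR-29a replicates 1 to 4 it read 32.5, 35.1, 37.6 and 37.6 FPKM. The labels name a TruSeq RNA kit that does not mark strand, so reads from an antisense gene that shares 557 exon bases with Hmgcs1 cannot be told apart from its own. Every anti-miR-29a library lay below every scrambled one, although the highest of the former and the lowest of the latter, 37.6 and 38.0 FPKM, nearly met. The means were 41.3 ± 3.28 and 35.7 ± 2.43 FPKM (SD, n = 4 per group), a log2 difference of -0.21 (standard error, SE, 0.072, limma, adjusted p = 0.351).

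Mvd, the decarboxylase that yields isopentenyl diphosphate, read 9.94, 7.92, 8.22 and 9.65 FPKM in scrambled and 7.06, 7.57, 8.31 and 6.58 FPKM in anti-miR-29a libraries. Anti-miR-29a replicate 3 reached into the scrambled range, and the other 3 libraries of that group lay below it. Its log2 difference was -0.27 (SE 0.11, limma, adjusted p = 0.403). Idi1, the isomerase of the next step, read 9.45 ± 0.714 and 7.99 ± 1.65 FPKM; anti-miR-29a replicates 1 and 2 were low at 6.25 and 6.93, and replicates 3 and 4 lay within the scrambled range at 9.27 and 9.53.

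The other 4 mevalonate genes differed by less. Fdps, the farnesyl diphosphate synthase, read 25.2 ± 4.90 and 22.8 ± 2.39 FPKM, and its scrambled libraries ranged from 18.9 to 30.7; its exons share 1124 bases with Gm43738 on the same strand. Mvk and Pmvk, the kinases of the route, read 7.19 ± 1.10 and 6.97 ± 0.688 FPKM and 24.18 ± 1.205 and 25.7 ± 2.38 FPKM. Acat2, a cytosolic thiolase, read 14.1 ± 1.64 and 13.2 ± 1.15 FPKM; its close copy Acat3 has its own row at 13.2 ± 0.586 and 13.8 ± 1.99 FPKM, and how the authors divided reads between the copies is not given in the sources used here. None of the 4 passed (limma, adjusted p = 0.716 to 0.933).

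The squalene and sterol enzymes turn farnesyl diphosphate into cholesterol. They were divided, 6 with a negative and 5 with a positive difference, around a median of -0.03. Sc5d, the desaturase of the late route, read 15.9, 15.1, 16.1 and 13.7 FPKM in scrambled and 12.7, 13.7, 9.74 and 11.4 FPKM in anti-miR-29a libraries. The groups touched at 13.7 FPKM, where anti-miR-29a replicate 2 met scrambled replicate 4. Of the enzymes it had the largest negative difference, -0.36 (SE 0.11, limma, adjusted p = 0.285).

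Lss, which closes squalene epoxide into lanosterol, the first sterol, read 4.83, 5.09, 4.09 and 5.37 FPKM in scrambled and 4.52, 3.40, 3.21 and 4.16 FPKM in anti-miR-29a libraries. Anti-miR-29a replicates 2 and 3 were below all scrambled libraries and replicates 1 and 4 were within their range. The log2 difference was -0.34 (SE 0.14, limma, adjusted p = 0.420); an antisense gene shares 381 bases with its exons. Msmo1, a C4-methyl oxidase, read 24.1 ± 2.89 and 20.8 ± 1.54 FPKM, and Sqle, the squalene epoxidase, 12.9 ± 0.573 and 11.3 ± 1.74 FPKM, with differences of -0.21 and -0.20 (limma, adjusted p = 0.466 and 0.551). Sqle was lowest in anti-miR-29a replicate 1, at 9.03 FPKM against 11.0 to 12.8 FPKM in the rest of that group. Nsdhl, which removes the C4 carboxyl group, read 9.34 ± 0.498 and 8.47 ± 0.845 FPKM, with 3 of 4 anti-miR-29a libraries below the lowest scrambled one.

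Tm7sf2, a sterol C14 reductase, had a positive difference. It read 3.67, 5.02, 4.28 and 5.19 FPKM in scrambled and 5.58, 4.70, 7.01 and 6.95 FPKM in anti-miR-29a libraries. Anti-miR-29a replicate 2 lay within the scrambled range and the other 3 above it, for a log2 difference of 0.40 (SE 0.16, limma, adjusted p = 0.401). Its exons share 532 bases with those of Vps51 on the same strand; Vps51 itself differed by 0.07, and how shared reads were assigned is not given in the sources used here.

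Dhcr7, the reductase of the last step, read 9.61 ± 1.10 and 11.1 ± 0.691 FPKM, and Ebp, a sterol isomerase, 5.68 ± 1.28 and 6.52 ± 0.954 FPKM, each with a log2 difference of 0.21 (limma, adjusted p = 0.468 and 0.676). Hsd17b7, a keto reductase, and Cyp51, the C14 demethylase, read 3.24 ± 0.633 and 3.40 ± 0.481 FPKM and 9.79 ± 1.05 and 9.57 ± 0.292 FPKM. Fdft1, the squalene synthase and the highest of the 11 by mean level, read 23.9, 25.6, 23.1 and 26.8 FPKM in scrambled and 26.1, 25.5, 25.0 and 23.0 FPKM in anti-miR-29a libraries. Its groups overlapped, with a difference of 0.00 and a standard error of 0.067, but its exons share 774 bases with Ctsb on the opposite strand, and a library kit that keeps no strand cannot divide such reads.

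**Figure D2:**
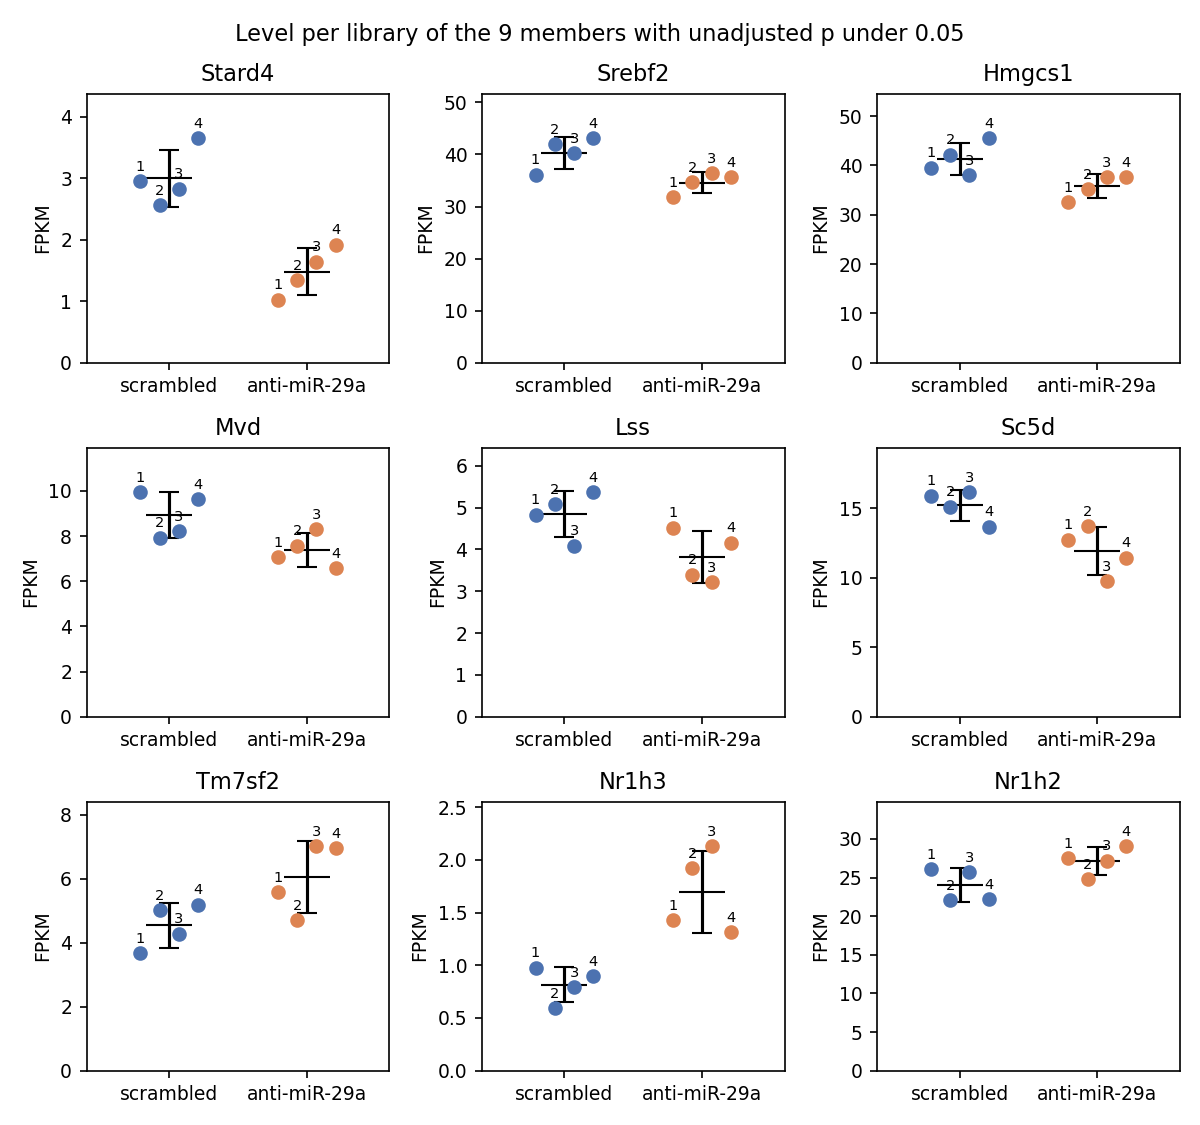
FPKM in each library of the 9 sterol genes with an unadjusted limma p under 0.05; points are libraries numbered by replicate, horizontal marks are group means and bars are SD (n = 4). Stard4, Hmgcs1 and Nr1h3 are the genes whose groups do not overlap, with Stard4 at 1.03 to 1.92 FPKM in anti-miR-29a and 2.56 to 3.65 in scrambled libraries.

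SREBP regulators decide how strongly these enzymes are transcribed. Srebf2 encodes SREBP2, the factor that acts on cholesterol genes. It read 36.1, 41.9, 40.3 and 43.1 FPKM in scrambled and 31.8, 34.6, 36.4 and 35.6 FPKM in anti-miR-29a libraries. Of the anti-miR-29a libraries only replicate 3, at 36.4 FPKM, exceeded the lowest scrambled one, and the means of 40.4 ± 3.06 and 34.6 ± 1.98 FPKM gave a log2 difference of -0.22 (SE 0.069, limma, adjusted p = 0.312). Srebf1, whose SREBP1 products act mainly on fatty acid genes and which LXR raises in many tissues, read 8.60 ± 1.21 and 10.6 ± 1.87 FPKM, a difference of 0.29 (limma, adjusted p = 0.504). Its anti-miR-29a libraries were split: replicates 2, 3 and 4 read 11.8, 11.4 and 11.4 FPKM, above all scrambled libraries, and replicate 1 read 7.83.

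Transcripts of the proteins that gate SREBP came next. Scap, the escort, read 19.5 ± 0.854 and 20.0 ± 1.63 FPKM, a difference of 0.04 (limma, adjusted p = 0.875), and shares 985 exon bases with a gene on the other strand. Insig1 and Insig2, the retention proteins, read 19.7 ± 2.78 and 18.1 ± 2.62 FPKM and 9.24 ± 1.05 and 10.01 ± 0.681 FPKM, differences of -0.12 and 0.12 (limma, adjusted p = 0.757 and 0.689). Insig1 is itself raised by SREBP, so that its transcript is often read beside those of the enzymes.

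The promoter of Hmgcs1 is printed because it was the only one of the searched sterol gene promoters to hold the letters TCACNCCAC, a form of the sterol regulatory element to which SREBP binds. The window runs from 250 bases before to 50 after the start site, at chr13:119690101-119690400 on the plus strand (RefSeq, GRCm38.p6), and capitals mark the match, whose first base is at position -137 from the start site.
Hmgcs1 promoter: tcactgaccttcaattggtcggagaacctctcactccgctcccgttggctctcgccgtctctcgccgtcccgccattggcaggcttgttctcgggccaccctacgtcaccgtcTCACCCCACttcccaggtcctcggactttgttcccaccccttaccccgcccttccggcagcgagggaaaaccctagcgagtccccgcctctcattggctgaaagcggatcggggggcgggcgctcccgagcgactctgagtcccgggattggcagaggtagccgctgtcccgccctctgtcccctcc

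RefSeq windows were matched for 26 of the 33 genes, 35 windows in all, and for 15 of the 18 enzymes, 18 windows. Abcg1, Abcg4, Fdft1, Fdps, Npc1, Sqle and Stard4 had none. On either strand, TCACNCCAC was in 1.24% of the 32851 windows of the table. CCAAT, the letters bound by NF-Y, which works beside SREBP at sterol promoters, was in 14 of the 18 enzyme windows (77.8%) and in 37.4% of all windows. GGGCGG, the GC box, was in 15 of 18 (83.3%) and in 35.7% of all. Over the 35 windows of all sterol genes, CCAAT was in 22 (62.9%) and GGGCGG in 27 (77.1%). The shares over all windows were not limited to tested genes. In the Hmgcs1 window none of the 3 motifs overlapped another motif. Nr1h3 had 2 windows and neither held any of the 3. These are matches of letters, and binding was not measured.

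Sterol carriers move cholesterol between membranes. Stard4, a soluble protein that ferries sterol to the endoplasmic reticulum and plasma membrane, is a known SREBP2 target; the gene lies on chromosome 18 at 33199355 to 33213862 (GRCm38, minus strand). It read 2.96, 2.56, 2.83 and 3.65 FPKM in scrambled and 1.03, 1.34, 1.64 and 1.92 FPKM in anti-miR-29a libraries. All 4 anti-miR-29a libraries lay below all 4 scrambled ones, with a gap from 1.92 to 2.56 FPKM. Means of 3.00 ± 0.464 and 1.48 ± 0.385 FPKM gave a log2 difference of -0.99 (SE 0.20, limma, adjusted p = 0.200). Over the alternative settings the difference ranged from -1.12 to -0.69 and the adjusted p from 0.146 to 0.396. Stard4 had the smallest p of the 33 genes, and it missed the threshold under each setting in which it was tested.

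Npc2 and Npc1 hand cholesterol out of the lysosome after lipoprotein uptake. Npc2 read 14.01, 11.8, 10.3 and 10.9 FPKM in scrambled and 11.6, 15.1, 14.7 and 14.3 FPKM in anti-miR-29a libraries. Replicates 2, 3 and 4 of the anti-miR-29a group lay above all scrambled libraries and replicate 1 did not, for a log2 difference of 0.25 (SE 0.11, limma, adjusted p = 0.478). Npc1 read 11.7 ± 1.47 and 11.2 ± 0.946 FPKM, with scrambled replicate 1 alone high at 13.9; its exons share 511 bases with Rmc1 on the other strand. Without scrambled replicate 1 the difference of Npc1 was 0.03, next to -0.05 with it, and that of Npc2 was 0.33.

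Export and turnover genes lay close to 0, with log2 differences of -0.05 to 0.16 and no p under 0.05 (limma, smallest adjusted p = 0.776). Cyp46a1, the neuronal cholesterol 24-hydroxylase, was the highest of all 33 genes in level. It read 124.4, 138.5, 136.2 and 131.3 FPKM in scrambled and 142.6, 129.4, 130.2 and 138.5 FPKM in anti-miR-29a libraries, a difference of 0.03 with a standard error of 0.050. The groups overlapped, and the sign was negative after quantile normalization (-0.02), median centring (-0.00) and removal of the length and GC trend (-0.06).

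Abca1 and Abcg1, LXR-driven exporters of glia, read 3.53 ± 0.496 and 3.98 ± 0.902 FPKM and 12.2 ± 1.47 and 11.7 ± 0.498 FPKM. Abcg4, a neuronal relative of Abcg1, read 14.99 ± 1.62 and 14.7 ± 0.866 FPKM. Soat1, which esterifies cholesterol for storage, read 3.10 ± 0.307 FPKM in scrambled libraries and varied more in the anti-miR-29a group, where it read 2.42, 4.09, 2.58 and 3.94 FPKM, 2 libraries below and 2 above the whole scrambled range.

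LXR receptors sense oxysterols. Nr1h3, which encodes LXR-alpha and is found mostly in macrophage-lineage cells and lipid-handling tissues, read 0.977, 0.594, 0.790 and 0.895 FPKM in scrambled and 1.43, 1.92, 2.13 and 1.31 FPKM in anti-miR-29a libraries. Every anti-miR-29a library was above every scrambled one, from 1.31 FPKM against 0.977. The means were 0.814 ± 0.166 and 1.70 ± 0.390 FPKM and the log2 difference 0.97 (SE 0.24, limma, adjusted p = 0.232). It was the lowest of the 33 genes in level, and its difference moved with the pseudocount, to 0.57 with 1 and 1.05 with 0.01. The adjusted p ranged from 0.206 to 0.430 over the settings.

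Nr1h2, the widely expressed LXR-beta, read 26.1, 22.1, 25.7 and 22.2 FPKM in scrambled and 27.5, 24.8, 27.2 and 29.03 FPKM in anti-miR-29a libraries. Anti-miR-29a replicate 2 lay within the scrambled range and the others above it. Its difference was 0.18 (SE 0.078, limma, adjusted p = 0.453), and 0.08 with the length and GC trend removed. As examples of genes that LXR is known to raise, Abca1 differed by 0.16, Abcg1 by -0.05, Srebf1 by 0.29 and Apoe by 0.42. LXR targets were not gathered as a list, so these genes do not show how such targets differed as a set. Their relation to the receptors was not tested.

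**Figure D3:**
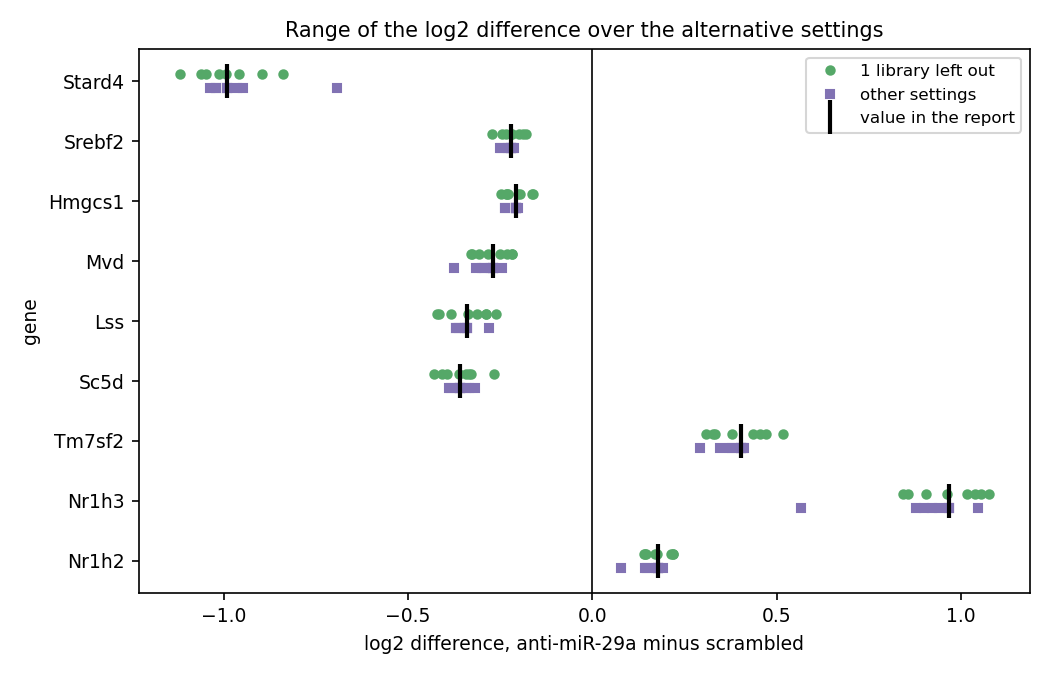
Log2 difference of 9 sterol genes under each alternative setting; green circles leave out 1 library each, purple squares are the other settings and black bars the reported values. No point of these 9 genes crosses 0, and the points of Stard4 and Nr1h3 that lie nearest to 0, at -0.69 and 0.57, are those with a pseudocount of 1.

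The plot of alternative settings shows the 9 genes with an unadjusted p under 0.05. Each kept its sign in every setting run, and none was called in any. Because the 9 were picked by p in these same libraries, a kept sign was likely beforehand and adds no independent support. Of all 33 genes 23 kept their sign in every setting, and the 10 that did not had small differences in either direction: Mvk, Pmvk, Fdft1, Cyp51, Hsd17b7, Npc1, Abcg1, Abcg4, Cyp46a1 and Soat1.

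Library by library, the enzymes did not separate the groups. Against the scrambled mean, the median over the 18 enzymes was -0.002, -0.019, -0.114 and 0.113 log2 units in scrambled replicates 1 to 4 and -0.077, -0.108, -0.072 and -0.043 in anti-miR-29a replicates 1 to 4. Scrambled replicate 3 was below every anti-miR-29a library, with 16 of 18 enzymes under the scrambled mean, and scrambled replicate 4 was the highest, with 3 of 18 under it. The anti-miR-29a libraries lay close to each other, with 10 to 13 of 18 enzymes under the scrambled mean. Summed enzyme levels were 234.1 to 269.8 FPKM in scrambled and 230.3 to 245.2 FPKM in anti-miR-29a libraries.

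**Figure D4:**
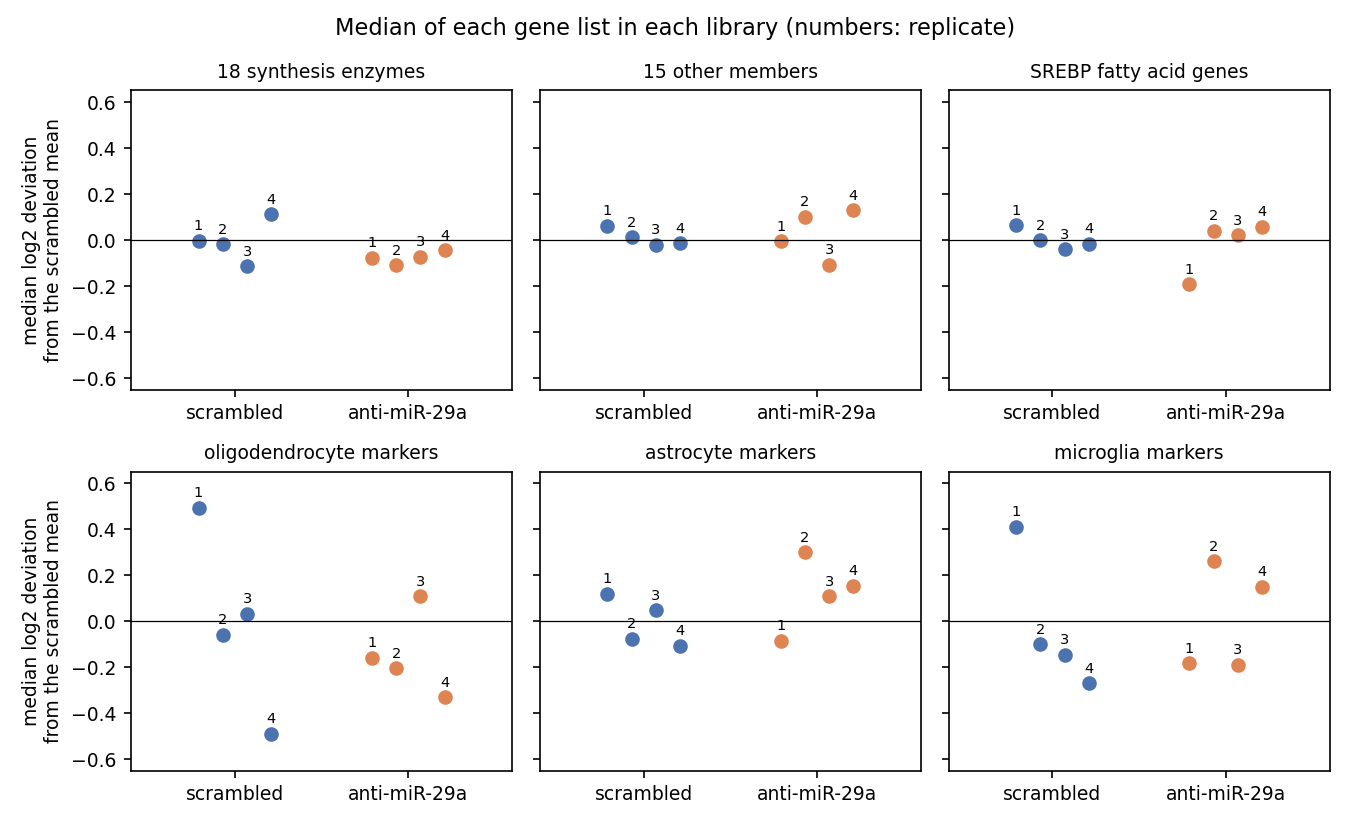
Median log2 deviation from the scrambled mean in each library for the 18 synthesis enzymes, the 15 other sterol genes, SREBP fatty acid genes and markers of 3 glial cell types; points are libraries numbered by replicate. The enzyme medians of the 2 groups overlap, scrambled replicates 1 and 4 lie at opposite ends for oligodendrocyte markers (0.493 and -0.490), and anti-miR-29a replicate 1 is low for fatty acid genes at -0.192.

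Glial markers also differed between the libraries, as the plot of list medians shows. Oligodendrocytes use much cholesterol for myelin. Their 12 markers had a median difference of -0.15 with 11 below 0, and a summed 870.5 to 1775 FPKM in scrambled and 968.5 to 1288 FPKM in anti-miR-29a libraries. Scrambled replicate 4, highest for the enzymes, was lowest for these markers. Astrocyte markers, from the cells that supply neurons with cholesterol, had a median difference of 0.10 with 9 of 12 above 0 and sums of 1530 to 1807 and 1594 to 2091 FPKM. Microglia markers, which concern Nr1h3, had a median of -0.03 with 5 of 10 above 0 and sums of 272.9 to 434.8 and 339.8 to 432.4 FPKM. Scrambled replicate 1 had the highest microglial sum, 434.8 FPKM, and the highest Nr1h3 of its group, 0.977 FPKM. Anti-miR-29a replicate 2 had the highest microglial sum of its group, 432.4 FPKM, and Nr1h3 at 1.92 FPKM. Nr1h3 was highest, at 2.13 FPKM, in anti-miR-29a replicate 3, which had the lowest microglial sum of its group, 339.8 FPKM. Of the other cell types, precursors of oligodendrocytes had a median of -0.00, endothelial and mural cells 0.09 and fibroblasts 0.51, the last with 8 of 9 above 0 and sums of 329.8 to 518.1 and 480.7 to 739.8 FPKM. No marker in these lists was at 0 in every library, and limma called 0 of them. At an unadjusted p under 0.05, 3 of 12 astrocyte, 1 of 8 oligodendrocyte precursor, 1 of 10 microglia, 1 of 10 endothelial and mural and 4 of 9 fibroblast markers were higher, beside 7.54% of all rows. Lower were 1 of 12 oligodendrocyte, 1 of 12 neuron and 1 of 10 endothelial and mural markers, beside 3.18%, and 2 of 12 neuron markers were lower without overlap, beside 2.29%. Their part in the sterol results was not tested.

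Other genes of the same biology were read from wider lists, and limma called 0 genes in each; counts at an unadjusted p under 0.05 stand beside 3.18% lower and 7.54% higher over all tested rows. Further genes of sterol and isoprenoid synthesis stood at a median of 0.04, with 6 of 13 below 0 and 0 at an unadjusted p under 0.05; Pdss1, Aacs and Ggps1 had the smallest p, at 0.35, 0.18 and -0.24 log2 units (limma, adjusted p = 0.487, 0.502 and 0.530). Genes of sterol sensing and regulated degradation stood at -0.06, with 10 of 15 below 0 and 1 at an unadjusted p under 0.05. That gene, March6, which encodes a ubiquitin ligase that degrades squalene epoxidase, read 26.6 ± 1.27 and 22.6 ± 0.859 FPKM without overlap between the groups. Its difference was -0.23 (limma, adjusted p = 0.234). Sqle, the gene of its substrate, stood at -0.20, and a relation between these transcripts was not tested. Ubxn4 stood at 0.13.

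Lipoprotein uptake genes had 6 of 10 below 0, a median of -0.07 and 2 at an unadjusted p under 0.05, both lower. These were the receptor genes Sorl1, at 19.0 ± 2.63 and 14.3 ± 2.90 FPKM, and Lrp8, which encodes a neuronal receptor for APOE and reelin, at 10.5 ± 0.647 and 9.27 ± 0.307 FPKM (limma, adjusted p = 0.381 and 0.443). Lipoprotein and sterol transfer genes had 17 of 26 above 0, a median of 0.03, and 2 lower and 2 higher at an unadjusted p under 0.05. Apoe, which encodes the main apolipoprotein of brain and is an LXR target, read 1183 ± 107 and 1583 ± 212 FPKM without overlap. Its difference was 0.42 (limma, adjusted p = 0.211). Clu, which encodes another apolipoprotein of astrocytes, stood at 0.24, while Osbpl8, which exchanges lipids at membrane contacts, stood at -0.26.

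SREBP also drives fatty acid synthesis. Its 17 tested genes had a median of 0.02, with 7 below 0, and 3 were lower at an unadjusted p under 0.05, 17.6% of them against 3.18% of all rows. These were the desaturase genes Scd2, at 167.3 ± 12.6 and 141.6 ± 11.0 FPKM, and Scd1, at 30.3 ± 4.08 and 24.3 ± 2.68 FPKM, and the acyl-CoA ligase gene Acsl1, at -0.17 log2 units (limma, adjusted p = 0.267, 0.333 and 0.394). Anti-miR-29a replicate 1 had 15 of 17 fatty acid genes under the scrambled mean. Their sum was lowest there, 456.1 FPKM, against 514.9 to 572.0 FPKM in the other 7 libraries. Srebf1 read 7.83 FPKM in that library. It read less, 7.12 FPKM, in scrambled replicate 2, where 9 of 17 fatty acid genes were under the mean and their sum was 542.3 FPKM. A relation between Srebf1 and these genes was not tested.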

How the data were processed

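RNA sequencing of visual cortex gave 8 libraries, 4 per group. The deposited table holds FPKM; the submitters' processing notes name mm10 and the tools CASAVA 1.8.2, Bowtie and Cuffnorm. Their order, the annotation and how values were scaled between libraries are not given in these sources. No read counts were used, so depth per gene is unknown. Rows with a mean of at least 0.5 FPKM (13912) were fitted across all genes as log2(FPKM + 0.1) in limma 3.58.1 (R 4.3.3) with group as the term and trend set to true. Two-sided p-values were adjusted by Benjamini-Hochberg over all rows, with a threshold of 0.05. The fit was tested on simulated data. Those values were drawn independently for each gene and library, so shifts shared by many genes of a library were not covered.

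Sterol genes and lists were chosen with earlier results of these data known. All 33 are named. Those whose groups did not overlap, with an unadjusted p under 0.05, or with the highest level of their role have every library's value. From other lists up to 3 genes of smallest p are named, and some list members are not reported here. GENCODE M21 (GRCm38, the assembly of mm10) gave positions, 3' UTRs and lengths, and 99.2% of tested rows matched it.

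Alternatives were pseudocounts of 1 and 0.01, no filter, a stricter filter at 5 FPKM, median centring, quantile normalization, a length and GC trend removed from each library (natural splines, 5 degrees of freedom, 13762 rows with a transcript of at least 200 nt), robust empirical Bayes, sample weights, a block for the replicate number, and each library left out.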

Additional observations from a re-analysis of the deposited data

Results flagged for a closer look

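Of 66 groups of 4 libraries examined, 2 for each sterol gene, 3 held a library far from the other 3 by Dixon's gap criterion, where chance gives about 1 in 20 groups. Srebf1 was low in anti-miR-29a replicate 1 at 7.83 FPKM, with the rest of that group at 11.4 to 11.8 FPKM. Dhcr7 was high in the same library at 12.1 FPKM, against 10.6 to 10.8 FPKM. Npc1 was high in scrambled replicate 1 at 13.9 FPKM, against 10.8 to 11.2 FPKM.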

How the results depend on the processing

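The number of genes called over all rows was 2, and it was 1 with no filter, 1 with a mean of at least 5 FPKM, 10 with robust empirical Bayes, 0 with the replicate block (1476 at an unadjusted p under 0.05) and 1 to 3 with a library left out. No sterol gene was called in any setting. Same-numbered libraries correlated at -0.106 to 0.014 in their deviations from group means, and none correlated best with its own number. With only 4 libraries per group these correlations cannot exclude a pairing by number. With the replicate block Stard4 had an adjusted p of 0.258 and Nr1h3 0.354 (limma). The mean filter of 5 FPKM left 27 of the 33 genes, dropping Lss, Hsd17b7, Stard4, Abca1, Soat1 and Nr1h3.

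Signs reversed outside the leave-one-out fits for 3 genes: Pmvk with the length and GC trend removed (-0.035), Fdft1 with quantile normalization (-0.037), median centring (-0.027), the trend removed (-0.054) and sample weights (-0.025), and Cyp46a1 with quantile normalization (-0.019), median centring (-0.002) and the trend removed (-0.058). With a library left out, ranges that crossed 0 were -0.090 to 0.061 for Mvk, -0.032 to 0.040 for Fdft1, -0.067 to 0.042 for Cyp51, -0.012 to 0.197 for Hsd17b7, -0.103 to 0.033 for Npc1, -0.124 to 0.006 for Abcg1, -0.093 to 0.032 for Abcg4, -0.003 to 0.049 for Cyp46a1 and -0.082 to 0.164 for Soat1. The causes were not tested. Of the sterol genes, 5 were higher at an unadjusted p under 0.05 with sample weights and 1 with the trend removed, next to 3, and 8 were lower with median centring or the trend removed, next to 6. Over all rows, in either direction, 1660 were under 0.05 with sample weights, 1479 with median centring and 1110 with the trend removed, next to 1492. Rows below 0 were 42.6%, 50.9% and 52.2% of all rows in these settings, next to 43.4%. Shares by direction over all rows were not computed for them. Without read counts, the counting error of genes near 1 FPKM, such as Nr1h3, is unknown.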
